A study of Mus musculus with 2 samples.

Results

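Muscle contracts when calcium leaves the sarcoplasmic reticulum and relaxes when it is pumped back, and between contractions the ion is held by acidic, low-affinity binding proteins inside that store. The largest buffer is calsequestrin, which the membrane proteins triadin and junctin hold next to the release channel at the junction with the transverse tubule. Sarcalumenin and the histidine-rich calcium binding protein bind calcium along the store, calreticulin and calumenin act mainly in the general endoplasmic reticulum, parvalbumin takes up calcium in the cytosol of fast fibres, and mitsugumin-29 is a membrane protein of the triad. The 10 genes described here encode these proteins: Casq1, Casq2, Trdn, Asph, Hrc, Srl, Pvalb, Calr, Calu and Sypl2. They were chosen by name, out of 15371 annotated genes with at least 1 read, and all 10 had reads in both libraries.

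The data are long-read RNA sequencing of the gastrocnemius, a fast muscle of the calf, from female B6CASTF1/J mice at 2 months of age, a hybrid strain of B6 and Cast parents. There was a single group with no treatment and 2 libraries: replicate 1 from the mouse numbered 3 and replicate 2 from the mouse numbered 4, each from 2 µg of total RNA with spike-ins. The labels carry the same donor identifier for both, and the animal numbers are the basis for taking them as 2 animals. The deposited values were whole-number counts of reads assigned to transcript models (1 exon structure each), 1349298 reads in replicate 1 and 1359923 in replicate 2, and CPM values (reads per megaread) are these counts divided by the library total. No groups could be compared. Each p below comes from Fisher's exact test (two-sided) on reads of the 2 libraries, adjusted by the Benjamini-Hochberg method over all genes, exons or ends tested, and covers counting error only, as do the 95% intervals given with folds; a two-sided sign test on 2 animals has 0.5 as its smallest p.

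The libraries differed in what else they held. Of 14 slow fibre markers, 13 were tested, and 9 rose and 2 fell in replicate 2. Over all 9341 genes tested, 4.25% were higher and 3.56% lower in replicate 2, the shares to set beside each list here. The summed level of the slow fibre list was 4868 CPM in replicate 1 and 11962 CPM in replicate 2. Mybpc1, the most abundant slow fibre marker in replicate 1, was among those that fell, from 2822 to 2302 CPM. Of 10 adipocyte markers 8 fell, although the sum moved only from 6555 to 5797 CPM with Car3, also a muscle gene, making up 5286 and 5625 CPM of it. All 6 tested nerve and Schwann cell markers fell, and that list's sum went from 680 to 97.8 CPM. Of 5 smooth muscle markers 4 fell (sum of 221 and 89 CPM), and of 6 tendon markers 2 rose (sum of 339 and 579 CPM). Of 7 cardiac markers, Nppa, Nppb, Myl7, Tnni3 and Ryr2 had no reads in either library. All 6 skeletal muscle markers were abundant, at a sum of 122535 and 121927 CPM. All 6 also passed the test, 3 as higher and 3 as lower in replicate 2, with a median log2 ratio of -0.01. Reads on the strand opposite to annotated genes were 1.2% and 3.01% of the total, and reads of models under 300 bases 0.977% and 1.93%. The part of these differences in the results below was not tested. In bulk tissue, fewer cells of a type and less RNA per cell cannot be told apart.

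The proteins' known acidity can be read in the coding sequences of these genes. Codons that begin with GA, which encode aspartate and glutamate, made up a median of 11.1% of codons over 21675 protein-coding mouse genes (longest annotated coding sequence of each, GENCODE M21). For 9 of the 10 genes the share lay above the 95th percentile of that distribution. It was 30.8% in Hrc, 28.4% in Casq1, 26.6% in Casq2, 25.7% in both Calr and Calu, 20% in Pvalb, 19.5% in Srl, 18.9% in Trdn and 17.8% in Asph, and the exception was Sypl2 with 8.71%, at percentile 25.2. Trdn also stood at percentile 99.9 for the lysine codons AAA and AAG (21.5% against a median of 5.35%), and Hrc at percentile 99.9 for the histidine codons CAT and CAC (11.1% against 2.49%). These shares describe the reference sequence and not the reads.

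The ends of the calsequestrin coding sequences show this most plainly, and they are printed because calcium binding by these proteins is attributed to such acidic tails. The capitals mark codons beginning with GA, which were 27 of the last 40 codons in Casq1 and 32 of 40 in Casq2. The stretches lie at chr1:172210348-172210467 (minus strand) and chr3:102145308-102145427 (plus strand) of mm10.
Casq1: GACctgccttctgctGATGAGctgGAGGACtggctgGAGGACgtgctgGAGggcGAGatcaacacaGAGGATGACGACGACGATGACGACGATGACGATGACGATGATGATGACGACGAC
Casq2: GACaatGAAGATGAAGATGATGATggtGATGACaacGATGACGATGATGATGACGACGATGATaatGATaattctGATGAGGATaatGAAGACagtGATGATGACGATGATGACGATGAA
In Hrc the densest 50 codons, coding bases 841 to 990 (chr7:45336267-45336416, plus strand), held 35 codons of aspartate, glutamate or histidine, here in capitals. In Srl the densest 50 codons for GA-initial codons, coding bases 1051 to 1200 (chr16:4496577-4496726, minus strand), held 20, in capitals. In Trdn the 40 codons richest in lysine, coding bases 559 to 678 of the Trdn-201 transcript, held 16 AAA or AAG codons, in capitals.
Hrc: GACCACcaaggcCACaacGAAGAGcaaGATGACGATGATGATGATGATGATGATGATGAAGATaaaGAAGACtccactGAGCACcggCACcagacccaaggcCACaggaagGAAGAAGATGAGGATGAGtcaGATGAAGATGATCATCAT
Srl: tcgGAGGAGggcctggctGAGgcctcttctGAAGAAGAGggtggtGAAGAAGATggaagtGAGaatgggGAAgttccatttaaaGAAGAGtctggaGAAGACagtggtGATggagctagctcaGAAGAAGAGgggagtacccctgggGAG
Trdn: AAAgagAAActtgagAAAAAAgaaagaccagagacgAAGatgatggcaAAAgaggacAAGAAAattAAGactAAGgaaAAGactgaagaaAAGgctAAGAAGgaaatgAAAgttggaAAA

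Among the 10 genes, Casq1 had the most reads and Calr the fewest. Taking a read as a molecule, Casq1, the skeletal calsequestrin (chr1:172209894-172219868, minus strand), stood at 3720 ± 491 CPM (SD, n = 2), and Srl, which encodes sarcalumenin (chr16:4480216-4541816, minus strand), at 2899 ± 139 CPM. Hrc (chr7:45335290-45338974, plus strand) followed at 1264 ± 903 CPM, Pvalb (chr15:78191114-78206400, minus strand) at 937 ± 156 CPM, Trdn (chr10:33080554-33476709, plus strand) at 702 ± 256 CPM and Sypl2, the mitsugumin-29 gene (chr3:108211472-108226648, minus strand), at 579 ± 89.7 CPM. Casq1, Srl and the next 4 genes did not overlap over the libraries, whereas neighbours among those 4 did, so their order is not fixed. Below them came Asph, the junctin gene (chr4:9448069-9669344, minus strand), at 178 ± 29.7 CPM, Calu (chr6:29348069-29377110, plus strand) at 97.8 ± 1.06 CPM, Casq2, the calsequestrin of cardiac and slow fibres (chr3:102086415-102146514, plus strand), at 78.5 ± 35.6 CPM and Calr (chr8:84841850-84846934, minus strand) at 25.5 ± 1.71 CPM. Calu lay inside the range of Casq2. Per kilobase of mean model length the order changed at the top: Hrc had 3266, Casq1 2041, Pvalb 1239 and Srl 490 CPM per kilobase, and the other 6 kept their places. The Hrc value rests on models of 386.9 bases on average, against an annotated transcript of 2411 bases, which is described below. The Pvalb value rests on models of 756 bases on average, against 953 bases for Pvalb-202. That average includes a model of 4 bases with 55 reads in replicate 1 and 394 in replicate 2.

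**Figure D1:**
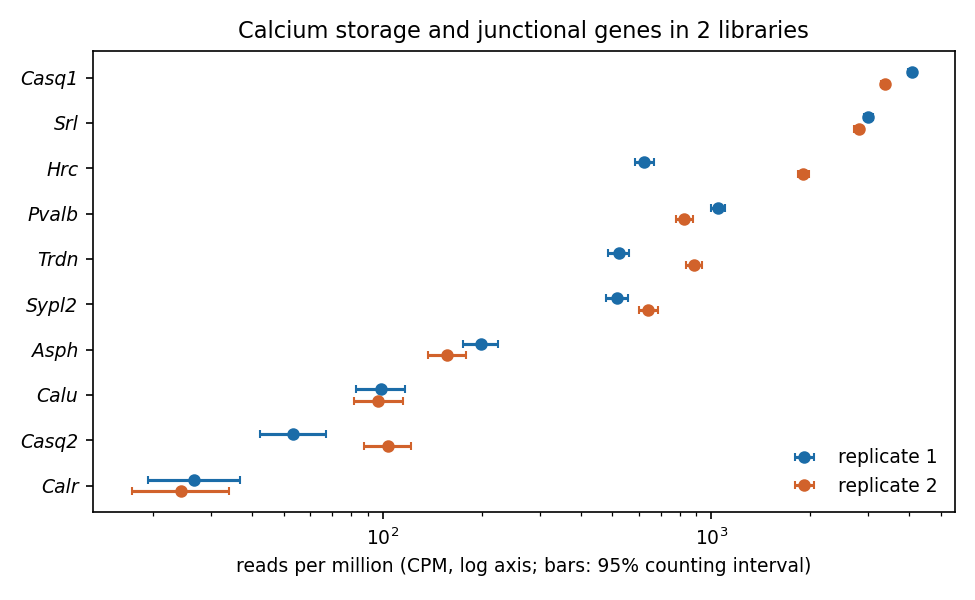
Level of each gene (CPM, log axis) in replicate 1 and replicate 2, with 95% Wilson intervals of the read share as bars. The 2 libraries sit farthest apart for Hrc, at 625 and 1902 CPM, and close together for Calu and Calr.

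Between the libraries, 4 of the 10 genes were higher in replicate 2 (Hrc, Casq2, Trdn and Sypl2), 3 were lower (Casq1, Pvalb and Srl) and 3 did not pass the test (Asph, Calr and Calu). So 7 of 10 passed, against 7.82% of 9341 genes tested, of which 4.25% of genes were higher and 3.56% lower in replicate 2. Spike-in reads numbered 49103 and 20235. With them and mitochondrial reads left out of the totals, the split over all genes turned from 397 higher and 333 lower to 336 higher and 370 lower. Abundant genes pass such a test at small ratios. With a spread of 10% between animals assumed (edgeR's exact test, dispersion 0.01), 2 of the 10, Hrc and Trdn, passed, against 1.85% of genes. That test was run on all reads only. On reads with an annotated first splice donor, described below, the log2 ratios were 0.79 for Hrc and 0.25 for Trdn, against 1.60 and 0.76 on all reads. The median log2 ratio was -0.06 over the 10 genes and -0.0101 over all genes tested.

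Casq1 had 5488 reads in replicate 1 and 4587 in replicate 2, or 4067 and 3373 CPM. It was 1.21-fold higher in replicate 1 (95% interval 1.16 to 1.25, adjusted p = 9.27e-19 by Fisher's exact test). Its cardiac and slow-fibre counterpart Casq2 had 72 and 141 reads, or 53.4 and 104 CPM. Casq2 was 1.94-fold higher in replicate 2 (1.46 to 2.58, adjusted p = 1.09e-04), and with the spread of 10% assumed its adjusted p was 0.0594. Of all calsequestrin reads Casq2 made up 1.29% (95% Wilson interval 1.03% to 1.63%) in replicate 1 and 2.98% (2.53% to 3.51%) in replicate 2. The higher Casq2 share was in the library with the higher slow fibre markers. The slow myosin heavy chain Myh7 had 313 CPM in replicate 1 and 3246 CPM in replicate 2, and the pump of the slow reticulum, Atp2a2, 142 and 796 CPM. Mybpc1, on the same list, went the other way, at 2822 and 2302 CPM.

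Both calsequestrin genes were read almost wholly as a single form. The annotated 11-exon transcript of Casq1 took 94.3% and 94.5% of its reads, and the annotated 11-exon transcript of Casq2 took 90.3% and 89.4%. A minor Casq1 form, picked out after its values were seen, lacked 181 bases inside the first exon (chr1:172219657-172219837), which hold the annotated start codon. It had 143 reads (2.61%) in replicate 1 and 110 (2.4%) in replicate 2, and the missing stretch begins with gt and ends with ag.

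Hrc showed the largest ratio of the 10 genes when all reads were counted, but few of its reads were complete. It had 843 reads in the first library and 2587 in the second, which is 3.04-fold more (2.82 to 3.29, adjusted p = 4.12e-198). In both libraries most Hrc reads belonged to a 4-exon model of 255 bases that starts at exon 3. This model took 83.9% of Hrc reads in replicate 1 and 89.1% in replicate 2, and the full 6-exon Hrc-201 took 8.54% and 4.79%. Exons 1 and 2, which these reads lack, hold 2019 of the 2214 coding bases, with the acidic and histidine-rich stretch printed above. Reads spliced from the annotated first exon numbered 75 and 130. On those reads alone the log2 ratio was 0.79 instead of 1.60, and the gene still passed (adjusted p = 0.0032), although Pvalb (-1.03) and Casq2 (0.95) then had the larger ratios.

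**Figure D2:**
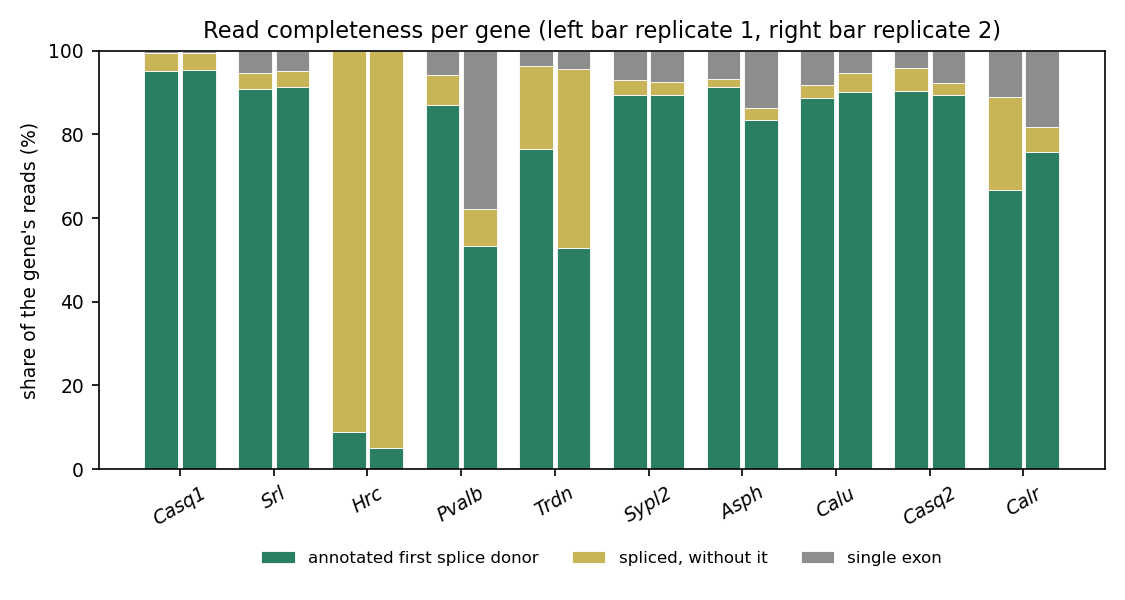
Share of each gene's reads (%) that hold an annotated first splice donor, that are spliced without it, or that have a single exon, for replicate 1 (left bar) and replicate 2 (right bar). Casq1, Srl, Sypl2, Casq2 and Calu are mostly complete in both libraries, whereas Hrc is complete in 8.9% and 5.03% of reads, and Trdn and Pvalb are less complete in replicate 2.

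How complete the reads were differed among the genes and between the libraries, and it moved some of the ratios. A read was taken as complete at its start when its model held an annotated first splice donor of its gene, a rule added after the data were seen; over all genes 72.7% and 71.6% of reads did. For Casq1 this was 95.2% and 95.4%, and for Srl 90.9% and 91.2%. For Trdn it was 76.4% in replicate 1 and 53% in replicate 2, and for Pvalb 87% and 53.3%. When only complete reads were counted, Casq1, Casq2, Sypl2, Hrc, Pvalb and Trdn kept their direction and passed, Asph passed as lower in replicate 2, and Srl did not pass, so 7 of 10 passed against 6.69% of 7802 genes tested. The position where a read starts within an exon is not resolved in these files. Of the incomplete spliced models of annotated genes, 93.5% and 92.8% begin exactly at an annotated exon edge, and 88.1% and 88.2% end exactly at one.

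**Figure D3:**
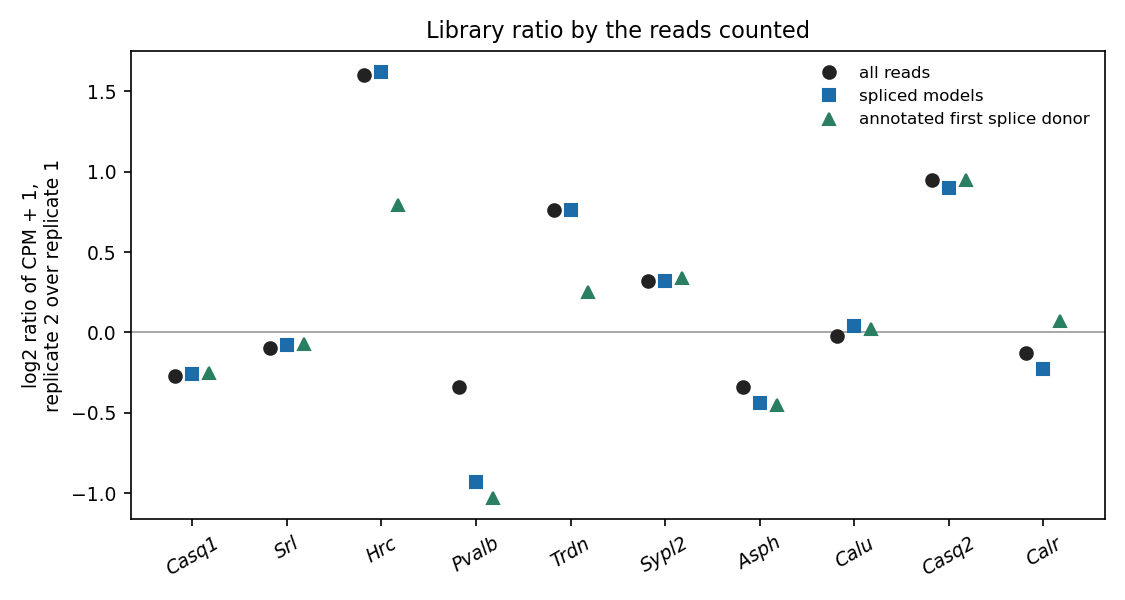
Log2 ratio of CPM + 1, replicate 2 over replicate 1, for each gene, from all reads (circles), spliced models (squares) and reads with an annotated first splice donor (triangles). The ratio of Hrc moves from 1.60 to 0.79 and that of Pvalb from -0.34 to -1.03, whereas Casq1, Casq2 and Sypl2 stay near their values.

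Trdn encodes triadin, which anchors calsequestrin to the release channel and is made in several sizes from transcripts that end at different exons. It had 704 reads in replicate 1 and 1201 in replicate 2, 1.69-fold more in replicate 2 (1.54 to 1.86, adjusted p = 3.67e-27). On complete reads, 538 and 636, the log2 ratio was 0.25 (adjusted p = 0.0484). The full-length annotated form, Trdn-201, has 38 exons and 2079 coding bases. Only 15 and 16 reads matched any annotated transcript exactly, since most reads were parts of annotated chains or unannotated combinations of annotated splice sites.

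The form that dominated differed between the libraries. A 10-exon chain that runs from exon 1 to exon 10 of Trdn-201 took 347 of 704 reads (49.3%, 95% Wilson interval 45.6% to 53%) in replicate 1 and 174 of 1201 (14.5%, 12.6% to 16.6%) in replicate 2. This difference passed with an adjusted p of 1.59e-56. Dominant-transcript shares of Trdn, Pvalb and Hrc passed among the 10 genes, against 1.70% of 4880 genes tested. A 5-exon chain from exon 6 to exon 10, which lacks the first 5 exons, took 92 reads (13.1%) in replicate 1 and 393 (32.7%) in replicate 2. A 21-exon chain that runs from exon 1 past the annotated end of exon 21 took 15 reads (2.13%) and 78 (6.49%).

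Where Trdn reads ended was tested apart from where they began. The deposited models give each intron chain a single end per library, so these are ends of models. Ends at the edge of exon 10 (position 33233926) held 479 reads (68%) in replicate 1 and 613 (51%) in replicate 2 (adjusted p = 2.49e-11). End shares of Trdn and Srl passed, of the 5 genes of this group that could be tested, against 8.30% of 2097 genes. Among complete reads the contrast was wider. There the exon 10 end held 379 of 538 reads (70.4%, 66.5% to 74.1%) in replicate 1 and 188 of 636 (29.6%, 26.1% to 33.2%) in replicate 2. The test on complete reads, added after the data were seen, gave an adjusted p of 3.65e-43, against 5.67% of 1218 genes passing. At nearly equal library totals, replicate 2 held fewer complete reads of the short form. Spliced reads with another start that ended at exon 10 numbered 100 in replicate 1 and 425 in replicate 2. The limit to complete reads therefore leaves out more exon 10 ends of replicate 2, and counting all reads the number at this end was higher in replicate 2.

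The longer Trdn forms made up the balance. Complete reads that ended between exons 21 and 22 numbered 34 (6.32%, 4.56% to 8.7%) in replicate 1 and 158 (24.8%, 21.6% to 28.3%) in replicate 2. Complete reads that ended in the last exon or past it numbered 85 (15.8%, 13% to 19.1%) and 266 (41.8%, 38.1% to 45.7%). These 2 classes were not tested on their own. Over all Trdn reads, complete or not, the annotated end at 33476709 held 62 of 704 reads and 157 of 1201. An end at 33477115, past the annotated last exon, held 35 and 96 of them. Over all genes, reads of models longer than 4 kilobases were 9.19% of the total in replicate 1 and 11.2% in replicate 2.

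**Figure D4:**
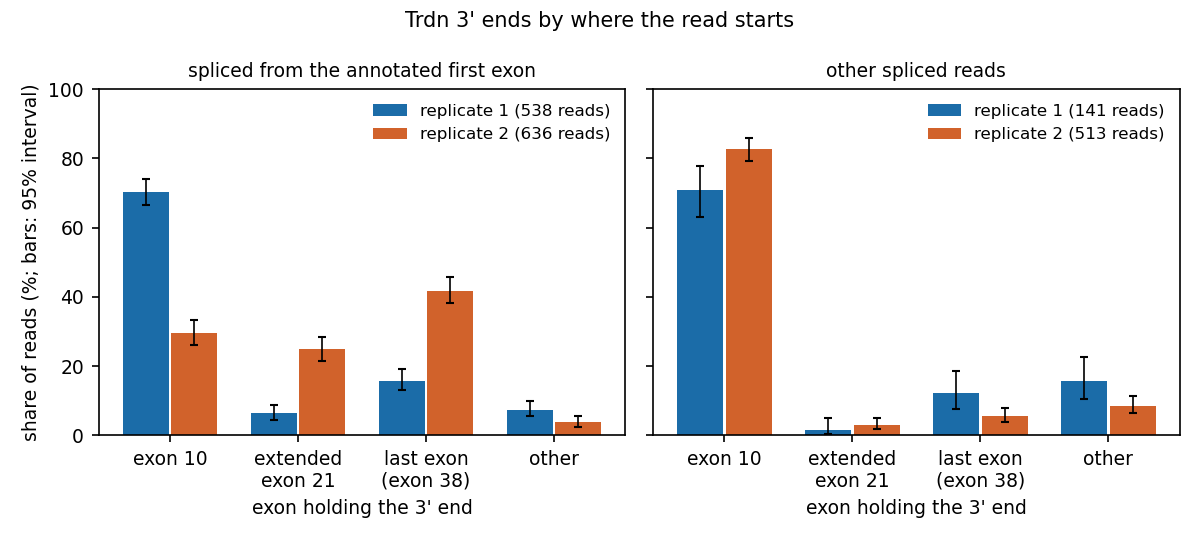
Share of Trdn reads (%, with 95% Wilson intervals) by the exon that holds the 3′ end, for reads spliced from the annotated first exon (left) and other spliced reads (right), in both libraries. In the left panel the exon 10 end falls from 70.4% in replicate 1 to 29.6% in replicate 2 and the class of ends in or past the last exon holds 15.8% and 41.8%; in the right panel exon 10 holds most reads of both libraries.

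The exon 10 end is the annotated end of a short form, Trdn-206, which has 859 coding bases and no annotated stop codon. In another short form, Trdn-207, with 915 coding bases, exon 10 runs on past its splice site and reaches a stop codon. The stretch printed next (chr10:33233897-33233985, plus strand) begins with the last 30 bases of exon 10 and continues with the 59 bases past it in Trdn-207, with the stop codon in capitals. The deposited models stop at the edge of exon 10, so whether the reads run into these 59 bases is not resolved. Of the first 30 bases past that edge 4 are A (13.3%).
Trdn-207: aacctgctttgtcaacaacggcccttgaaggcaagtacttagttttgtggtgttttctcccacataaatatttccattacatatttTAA

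Within the Trdn reads 4 short exons varied, each a multiple of 3 bases and wholly coding. The exon of 33 bases (chr10:33158246-33158278) was in 93.1% of informative reads in replicate 1 and 96.1% in replicate 2, and the exon of 48 bases (chr10:33343076-33343123) in 95% and 87.9%. The exon of 30 bases (chr10:33433701-33433730) was the only one near an even split, in 41 of 98 reads (41.8%, 32.6% to 51.7%) and 128 of 291 (44%, 38.4% to 49.7%). The exon of 24 bases (chr10:33450979-33451002) was in 96.9% and 91.5%. No exon of the 10 genes passed, with adjusted p of 0.3 or more, against 0.405% of 1973 exons tested. At an unadjusted p of 0.05 the Trdn exons of 33 bases (p = 0.0258) and 48 bases (p = 0.0172) and the long Srl exon (p = 0.00704) would have passed Fisher's exact test. The 4 exons are printed with whole AAA or AAG codons in capitals, since lysine codons are what marks this gene.
Exon of 33 bases: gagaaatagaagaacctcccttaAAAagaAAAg
Exon of 48 bases: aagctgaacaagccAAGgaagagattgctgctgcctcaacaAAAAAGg
Exon of 30 bases: agccacaactaAAAaacgaagagAAGtcaa
Exon of 24 bases: cagaaAAAcctggaAAAataccaa

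Asph gives rise, from different first exons and ends, to the enzyme aspartate beta-hydroxylase and to the short reticulum proteins junctin and junctate. It had 268 reads in replicate 1 and 213 in replicate 2, which did not pass (1.27-fold higher in replicate 1, 1.06 to 1.52, adjusted p = 0.104). Most of its reads were of a short form. Reads spliced from the first exon of Asph-206, which has 621 coding bases, numbered 230 (85.8%) and 172 (80.8%). Of them 222 and 164 ended with that transcript at position 9620909. The annotated Asph-206 model, which carries the annotated end whatever the ends of its reads, held 179 and 130 reads. Averaged over the libraries, this end held 88.3% of Asph reads, and 74.1% when only models that are not annotated were counted. Reads from the other first exon, that of the hydroxylase form Asph-202 with 2223 coding bases, numbered 15 (5.6%) and 6 (2.82%). Of these 15 and 6 reads, 9 and 3 ended with the shorter Asph-207, and 4 and 1 with the shorter Asph-201. Asph-201 has the same annotated start position as Asph-202, 9669162. Reads that ended with Asph-202 numbered 4 (1.49%) and 3 (1.41%), of which 2 and 3 were single-exon reads. Spliced reads from the first exon of Asph-202 to its end numbered 2 and 0.

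A minority of Asph reads carried a further exon of 180 bases. It was in 34 of 246 reads (13.8%, 10.1% to 18.7%) in replicate 1 and 30 of 181 (16.6%, 11.9% to 22.7%) in replicate 2 (adjusted p = 1). The annotation has these bases as the first part of a last exon in the transcripts Asph-205 and Asph-217, whereas in these reads they were joined onward to the exons of the short form.

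Sarcalumenin is a glycoprotein of the longitudinal reticulum, and Srl also encodes a smaller glycoprotein that shares its end with it. Srl had 4045 reads in replicate 1 and 3809 in replicate 2, 1.07-fold more in replicate 1 (1.02 to 1.12, adjusted p = 0.0371). The call was lost on spliced reads (adjusted p = 0.145), and with either of the other scalings tried. It was kept with mitochondrial and spike-in reads left out (log2 ratio -0.13, adjusted p = 0.00217 by Fisher's exact test). A single long exon of 1311 bases (chr16:4496405-4497715, minus strand) separates the forms: Srl-201, with 2730 coding bases, includes it and Srl-202, with 1416, does not. The exon was in 1413 of 3683 informative reads (38.4%, 36.8% to 39.9%) in replicate 1 and 1228 of 3482 (35.3%, 33.7% to 36.9%) in replicate 2 (adjusted p = 0.3). The acidic Srl stretch printed above lies inside it, so the smaller form was the more frequent one and lacks that stretch.

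The most frequent Srl structure is not in the annotation. It has 6 exons, skips the long exon, and took 2005 reads (49.6%, 48% to 51.1%) in replicate 1 and 1951 (51.2%, 49.6% to 52.8%) in replicate 2. It differs from Srl-202 in its splice chain by taking an acceptor that adds 3 bases to the exon at chr16:4493779-4493880, as Srl-201 does. Srl-202 itself took 5.83% and 7.06%, and Srl-201 30.6% and 28.2%. The 2 choices did not go together in the reads that resolve both. The longer acceptor was used in 88.5% of reads with the long exon and 89.5% of those without it in replicate 1, and in 88.3% and 87.8% in replicate 2. The first 30 bases of the longer exon (chr16:4493851-4493880, minus strand) are printed with the bases that the later acceptor leaves out in capitals.
Srl exon: AAGaggtggaggatgcgagtgaagaggctc

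The ends of Srl reads carry a limit that holds for Trdn and the other genes too. The annotated end, near 4480216, held 2018 reads (49.9%) in replicate 1 and 1690 (44.4%) in replicate 2 (adjusted p = 3.23e-05). The main unannotated structure carried its end at 4476979 in replicate 1 and at 4476263 in replicate 2. The files give each intron chain 1 model per library and so a single end, so the spread of read ends within a chain is not resolved. A model of an annotated transcript carries the annotated end, whatever the ends of its reads. Averaged over the libraries, the annotated end held 47.1% of Srl reads, and 17.6% when only models that are not annotated were counted. The share at this end therefore depends on which reads match an annotated chain.

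Pvalb encodes parvalbumin, the cytosolic calcium buffer of fast fibres. It had 1413 reads in replicate 1 and 1124 in replicate 2, 1.27-fold more in replicate 1 (1.17 to 1.37, adjusted p = 2.03e-07). Single-exon models made up 5.8% of these reads in replicate 1 and 37.8% in replicate 2. Among them, 55 and 394 reads belonged to a model that spans 4 bases at the end of the gene (chr15:78191114-78191117). Without single-exon models there were 1331 and 699 spliced reads, and the log2 ratio was -0.93 instead of -0.34. The size of the Pvalb difference therefore depends on whether those reads are counted, while its direction does not. The fast fibre markers were mixed, with 5 of 14 higher and 8 lower in replicate 2, against 4.25% and 3.56% of all genes. Their sum was 91111 and 89973 CPM.

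Both annotated starts of Pvalb have the same 330 coding bases, and the upstream one was used most. The 5-exon Pvalb-202, which starts at 78206400, took 1179 reads (83.4%) in replicate 1 and 574 (51.1%) in replicate 2, a difference that passed (adjusted p = 4.27e-66) and that includes the single-exon reads in its total. Pvalb-201, which starts at 78204237, was under 5% in both libraries. The 250 bases before each start (RefSeq, GRCm38.p6, minus strand) are printed, first the more used one, with CANNTG, the letters of an E-box, in capitals (the pattern reads the same on both strands). The window before Pvalb-202 (chr15:78206401-78206650) has no match and is 58.4% G and C, and the window before Pvalb-201 (chr15:78204238-78204487) has 1 CANNTG and is 71.6% G and C. Among all 32841 mouse promoter windows of this length, 66.2% hold CANNTG. A match or its lack describes these letters only.
Before Pvalb-202: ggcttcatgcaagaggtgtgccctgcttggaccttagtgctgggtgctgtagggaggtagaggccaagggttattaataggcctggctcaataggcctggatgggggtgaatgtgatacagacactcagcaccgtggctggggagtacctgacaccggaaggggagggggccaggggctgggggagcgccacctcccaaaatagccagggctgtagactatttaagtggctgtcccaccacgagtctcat
Before Pvalb-201: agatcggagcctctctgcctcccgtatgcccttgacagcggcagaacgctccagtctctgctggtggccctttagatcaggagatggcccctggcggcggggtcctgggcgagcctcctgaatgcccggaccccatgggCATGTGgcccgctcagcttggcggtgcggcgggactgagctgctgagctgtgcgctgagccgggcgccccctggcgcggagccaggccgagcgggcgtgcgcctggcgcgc

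Sypl2 encodes mitsugumin-29, a membrane protein of the synaptophysin family at the triad. It had 696 reads in replicate 1 and 874 in replicate 2, 1.25-fold more in replicate 2 (1.13 to 1.38, adjusted p = 5.13e-04). Its annotated 6-exon transcript took 86.9% and 87.4% of reads. On complete reads, 622 and 782, the log2 ratio was 0.34 against 0.32 on all reads. Its paralogue Sypl had 210 and 221 CPM and did not pass (adjusted p = 0.874).

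Calr and Calu, the calcium binders of the general endoplasmic reticulum, had few reads and did not pass. Calr had 36 and 33 reads, a ratio of 0.91 of replicate 2 to replicate 1 with an interval of 0.57 to 1.45 (adjusted p = 0.952). Calu had 133 and 132 reads, a ratio of 0.985 with an interval of 0.774 to 1.25 (adjusted p = 1). Differences inside those intervals were not detectable at this depth.

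Calu reads divided over 2 alternative exons of 194 bases each, which lie 72 bases apart and are used in place of each other. The upstream exon alone was in 52 of 118 reads that hold one of them (44.1%, 35.4% to 53.1%) in replicate 1 and 48 of 120 (40%, 31.7% to 48.9%) in replicate 2, the downstream exon alone was in 66 and 72, and 2 further reads in each library held both. The transcripts with each exon, Calu-201 and Calu-202, both have 945 coding bases. The exons are alike in sequence, with 127 of 194 bases identical in place (65.5%), and are printed in full for that reason, at chr6:29361294-29361487 and chr6:29361560-29361753 on the plus strand. The capitals mark the positions at which they differ.
Calu upstream: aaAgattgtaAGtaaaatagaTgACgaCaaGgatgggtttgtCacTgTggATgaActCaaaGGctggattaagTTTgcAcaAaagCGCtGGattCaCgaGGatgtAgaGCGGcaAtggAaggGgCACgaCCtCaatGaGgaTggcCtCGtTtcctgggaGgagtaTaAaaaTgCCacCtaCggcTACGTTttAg
Calu downstream: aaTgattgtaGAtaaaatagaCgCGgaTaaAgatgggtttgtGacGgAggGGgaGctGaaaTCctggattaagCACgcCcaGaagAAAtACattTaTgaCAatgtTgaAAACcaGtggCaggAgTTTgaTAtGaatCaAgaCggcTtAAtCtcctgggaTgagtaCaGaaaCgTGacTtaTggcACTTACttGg

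**Figure D5:**
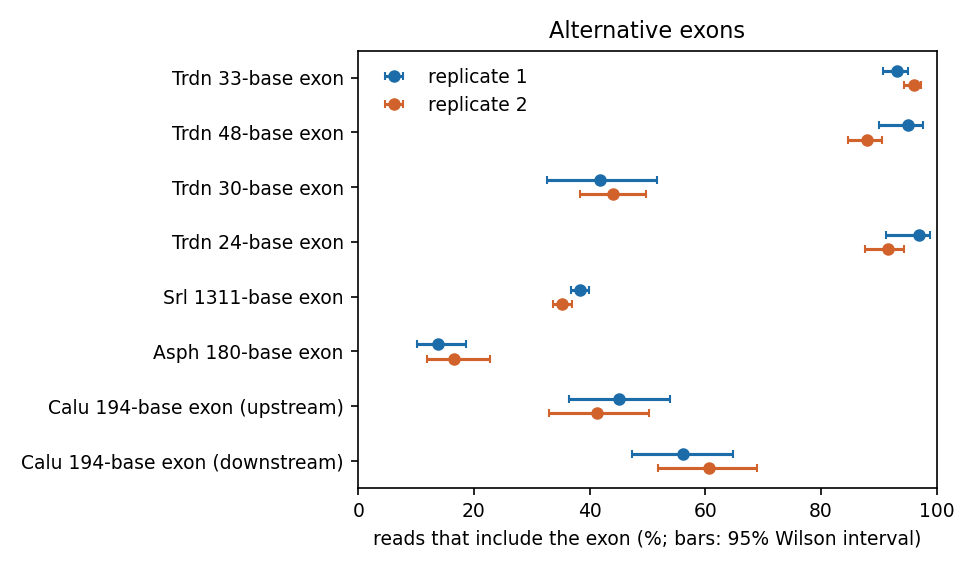
Share of informative reads (%, with 95% Wilson intervals) that include each alternative exon of Trdn, Srl, Asph and Calu in replicate 1 and replicate 2. The long Srl exon sits at 38.4% and 35.3% and the Trdn exon of 30 bases at 41.8% and 44%, and the intervals of the libraries overlap for every exon shown.

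The neighbours of these genes in calcium handling moved in both directions. Of 26 coupling genes, 24 were tested, 4 were higher in replicate 2, 4 were lower and 16 did not pass, against 7.82% of all genes passing, with a median log2 ratio of 0.03 against -0.01 over all genes. The fast pump Atp2a1 was the most abundant at 149332 and 143096 CPM, only 1.04-fold higher in replicate 1 (adjusted p = 3.23e-45), and the release channel Ryr1, with 799 and 707 CPM, did not pass (adjusted p = 0.0691). Atp2a2, the pump of slow fibres, was 5.62-fold higher in replicate 2 (4.82 to 6.55), the junctophilin Jph1 1.48-fold (1.18 to 1.86) and the channel subunit Cacna2d1 1.98-fold (1.41 to 2.8). The channel subunit Cacng1, with 110 and 69.9 CPM, was 1.57-fold higher in replicate 1 (1.21 to 2.03). Tmem38a, a potassium channel of the reticulum, had 1764 and 1652 CPM and did not pass.

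Of 16 symbols listed for the general lumen of the reticulum, 14 were tested, none rose, 2 fell and 12 did not pass, against 3.56% of all genes lower. The symbol Cab45 matched no annotated gene name, its gene being annotated as Sdf4, which is also on the list. The median log2 ratio was -0.17, against -0.01 over all genes. The chaperone Hspa5 had 368 and 379 CPM and did not pass. The disulfide isomerases P4hb, with 292 and 226 CPM, and Pdia3, with 43.7 and 21.3 CPM, were 1.29-fold (1.11 to 1.5) and 2.05-fold (1.32 to 3.19) higher in replicate 1. Of 11 paralogues of the 10 genes, which include both calsequestrins themselves, 7 were tested. Of these, 1 rose (Casq2), 1 fell (Casq1) and 5 did not pass, against 7.82% of all genes passing.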

How the data were processed

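The authors deposited raw counts of long reads per transcript model and a transcript annotation per library; per the labels the build is mm10. The annotation's attributes are those of TALON with GENCODE M21, per the file headers. Aligner, platform and filters: not given in the sources used here. Exon positions and model lengths are deposited in bases.

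Reads were summed per annotated gene, spike-ins kept in the library total only. Genes with at least 10 reads summed were tested by Fisher's exact test (Python 3.11 library scipy), with Benjamini-Hochberg adjustment at 0.05. Dominant intron chains, internal exons (pooled inclusion 5% to 95%) and 3′ ends joined within 100 bases needed at least 20 reads in each library. Log2 ratios use CPM + 1. Shares carry 95% Wilson intervals. Reads carry no molecular identifiers that were used, so intervals cover counting error only. Tests were checked on counts simulated with counting error alone, so the check does not cover a spread between animals. The alternatives were annotated or spliced models alone, other totals, scalings (edgeR, DESeq2), thresholds and pseudocounts. The genes and lists were chosen with earlier results of these data known. The text names all 10 genes, up to 4 most abundant and 4 most changed members of each list (of the cell type lists, those a result turns on), and transcripts, exons and ends with at least 5% of reads. Some items of these genes and lists are not reported here.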

Additional observations from a re-analysis of the deposited data

Results flagged for a closer look

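Reads of unannotated genes, which the values above leave out, lay at 3 of the 10 loci in more than 3 reads in both libraries, the limit that a count of 0 allows. On the strand of Trdn, 20 reads in replicate 1 and 22 in replicate 2 formed a single-exon locus from 33478129 to 33480376 on chromosome 10, which begins where the farthest-reaching Trdn models end, at 33478129 in both libraries (13 and 49 reads). On the opposite strand at Trdn there were 7 and 19 reads. At Pvalb the opposite strand held 11 and 20 reads, 10 and 18 of them in 1 locus each that ends at 78200680 on chromosome 15. On the strand of Srl there were 4 and 11 reads past its annotated end. Opposite-strand reads were 1.2% and 3.01% of all reads in the same libraries, and their part in these counts was not tested.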

How the results depend on the processing

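The 10 genes kept the sign of their log2 ratio wherever a call was made, under the alternatives tried (other read classes, totals, scalings, pseudocounts and an assumed spread). With a spread of 10% assumed between animals (edgeR, all reads), 173 genes passed in place of 730, and 449 passed at an adjusted p of 0.01. Under that spread Casq1 (-0.27), Casq2 (0.96), Srl (-0.10), Pvalb (-0.34) and Sypl2 (0.32) no longer passed. Srl also did not pass with annotated transcripts alone (-0.09), spliced models (-0.08), TMM or median-of-ratios scaling (-0.09 in both) or complete reads (-0.07). Without mitochondrial and spike-in reads Srl passed (-0.13). Trdn did not pass with annotated transcripts alone (0.13, adjusted p = 0.999), which leaves 15 and 16 reads. Asph passed on spliced models (-0.44) and on complete reads (-0.45). Without models classed as holding an unannotated splice site 23 exons passed in place of 8, among them the Asph exon of 180 bases (adjusted p = 0.0442). That class differs between the libraries for 1365 of 31901 shared structures, among them the 6-exon Asph structure with this exon (26 and 23 reads), which the filter removes from replicate 2 alone, so the Asph call comes from the filter. With structures so classed in either library left out of both, an alternative added after the data were seen, 9 exons passed, none of them of the 10 genes, and the Asph exon was no longer tested. On complete reads 69 ends passed in place of 174. The other causes were not tested, except that fewer reads or genes enter the read-class alternatives. Leaving out replicate 1 or 2 leaves the other library's level, from 625 to 1902 CPM for Hrc and 53.4 to 104 CPM for Casq2. By level per kilobase 4 ranks moved. On models that are not annotated, 2 mean end shares moved. The Srl share at 4480216 went from 47.1% to 17.6%, and the Asph share at 9620909 from 88.3% to 74.1%. No paired analysis was possible because there is 1 group. Depth limits Calr, Calu and Casq2 most.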
